A study of Mus musculus with 12 samples.

Results

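Of 41174 mouse probes on the arrays, 142 were higher in the lungs of dams that breathed cigarette smoke than in the lungs of dams that breathed filtered air. They were picked on the 6 dam arrays alone. A probe was kept where each smoke array read above 5% of its own 75th percentile of probe intensity, where every smoke array lay above every air array, and where the mean log2 difference was 0.585 or more. The dam values therefore describe the choice, and no member is tested on them. Members are tested on the offspring difference, whose arrays the choice did not use. The spread in the main fit, however, is pooled over all 12 arrays, so the dam arrays enter its p-values. A fit of the offspring arrays alone is therefore given as well.

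Lung RNA was measured in 4 groups of 3 biological replicates, 1 array each. Smoke dams were pregnant mice that breathed mainstream smoke of 3R4F filtered cigarettes, a standard research cigarette, diluted 1 part in 50, for 4 h a day on 5 days a week over the 18 days of gestation. Air dams were pregnant mice kept in filtered air. Smoke offspring were the prenatal young of smoke-exposed pregnancies and air offspring those of air pregnancies. The labels give female sex and a strain written B6C6F1 for all 4 groups and do not say which young shared a litter or which dam bore them, so the p-values rest on the spread among these samples, which may share litters.

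Cigarette smoke reaches the lung of a dam as inhaled gas and particles, which meet the airway lining and the alveolar macrophages directly. The lung of a fetus is filled with fluid, and smoke constituents reach it through the placenta and the blood. In rodent lung, inhaled smoke is known for inducing cytochrome P450 enzymes of the CYP1 family through the aryl hydrocarbon receptor, and antioxidant enzymes through the factor NRF2. None of the 142 identifiers was found in the gene table used here (0 matches), so no probe below is given a gene or a role, and whether several probes report the same gene is unknown. The lung label was not checked against marker genes for the same reason.

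The 75th percentile of intensity lay between 491 and 1164 on the 12 arrays and was lowest on smoke offspring replicates 2 and 3. E1A spike-in signal, from control RNA added to the samples, was 3.74 ± 0.423 times the 75th percentile in smoke offspring and 2.38 ± 0.819 times in air offspring, and 2.02 ± 0.653 times in smoke dams and 1.70 ± 0.140 times in air dams (SD, n = 3 each). On the first principal component of the tested probes, smoke dam replicate 3 (12.3) and air offspring replicate 2 (-11.5) lay away from their groups, toward the smoke offspring at 73.3 to 83.5. The other arrays scored between -43.3 and -28.0. Results resting on these 2 arrays are given with and without them.

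In the dams, the 142 probes differed by a median of 1.65-fold, between 1.5-fold and 10.01-fold, so most lay close to the lower bound. In 129 the difference was under 2-fold, in 13 it was 2-fold or more, and in 3 it was above 4-fold. The median level over the probes was 34.9%, 27.0% and 37.5% of the 75th percentile on smoke dam replicates 1, 2 and 3, and 17.5%, 18.7% and 18.5% on air dam replicates 1, 2 and 3. All 3 smoke arrays were high, and replicate 2 was the least so. It held the lowest smoke reading for 106 probes, against 23 for replicate 1 and 13 for replicate 3. The median difference was 1.78-fold without replicate 2 and 1.59-fold without replicate 3. Every probe separated the dam groups by choice, whereas the smoke arrays all lay above the air arrays for 6.05% of the 28200 probes tested, and nothing is read from that contrast. The gap between the lowest smoke and the highest air reading was narrow, with a median of 1.24-fold and a range of 1.02-fold to 2.93-fold.

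Limma called none of the 28200 tested probes for smoke against air in dams (0 calls), with 1166 at an unadjusted p under 0.05, and the plain equal-variance test also gave 0 calls with 1587. Limma with array weights, which gives less weight to arrays far from their group, called 1014. The 142 probes are thus a description of the dam arrays rather than a set that passed a test there. In bulk lung RNA, more cells of a type and more RNA per cell cannot be told apart.

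The probes above 4-fold stood far from the rest. A_51_P461067 read 106%, 38.7% and 138% of the 75th percentile in smoke dams and 10.6%, 13.7% and 7.13% in air dams, an 8.17-fold difference. A_52_P1054013 read 82.2%, 24.8% and 112% in smoke dams and 6.01%, 8.46% and 4.48% in air dams, a 10.01-fold difference. A_51_P122752 read 245%, 83.6% and 316% in smoke dams and 27.8%, 34.7% and 24.2% in air dams, a 6.52-fold difference. A_52_P1054013 and A_51_P122752 were singled out after their values had been seen.

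These 3 probes shared their order of arrays: smoke replicate 3 was highest and replicate 2 lowest of the smoke dams, and air replicate 2 highest and replicate 3 lowest of the air dams. Smoke replicate 1 exceeded replicate 2 by 3.32-fold at A_52_P1054013, 2.74-fold at A_51_P461067 and 2.94-fold at A_51_P122752. Replicate 3 exceeded replicate 2 by 4.53-fold, 3.56-fold and 3.79-fold in the same order. The spread within smoke dams was thus several-fold for each of them, and the size of their difference depended on which arrays entered it.

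A_51_P115601, ranked 5 by size of the difference, was steadier. It read 27.4%, 17.1% and 23.8% in smoke dams and 9.85%, 7.21% and 7.30% in air dams, or 22.7 ± 5.20% and 8.12 ± 1.5% (SD, n = 3 each), a 2.78-fold difference. The smoke arrays lay apart from the air arrays by at least 1.74-fold.

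Near the bound on the difference, the 3 nearest members had log2 differences of 0.5851, 0.5864 and 0.5910, and the 3 nearest probes outside had 0.5847, 0.5842 and 0.5781. Near the bound on the level, the lowest smoke dam reading was 5.00%, 5.10% and 5.10% in the nearest members and 4.70%, 4.55% and 4.38% in the nearest probes outside. A further 1324 probes met the level and the separation but fell short on the difference, 50 met the level and the difference but overlapped between groups, and 77 were separated and different enough but too dim.

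Most members were dim to moderate. Their mean level in air dams had a median of 18.1% of the 75th percentile, against 43.4% over all tested probes, and ran from 2.84% to 1399%. In air dams 75 members lay under 20% and 24 at or above 100%. All 142 were among the tested probes, which their level in smoke dams made certain, and 139 were above the background floor of 1.16% on every array. The other 3 reached the floor on at least 1 offspring array. The 13 members at 2-fold or more in dams were dimmer than the rest, with a median of 8.12% in air dams against 19.0% in the 129 under 2-fold. The level in air dams also enters the fold that split them, so the split is not independent of brightness.

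The offspring comparison asked whether the probes that were higher in smoke dams were also higher in prenatal lungs of smoke-exposed pregnancies. Limma called 56 of the 142 higher in smoke offspring (39.4%), where 28.1% of all tested probes were called higher. It called 1 member lower, where 25.1% of all tested probes were called lower, and left 85 uncalled. Among the 21626 probes that met the same minimum level in smoke dams, 32.9% were called higher and 25.7% lower. Calls here have a Benjamini-Hochberg adjusted p under 0.05 over all 28200 probes in limma. In this fit the share of members called higher stood above the background, and the share called lower far under it. The excess of higher calls was smaller in some other settings. In the plain equal-variance test 18.3% of members were called higher, against 15.6% of all tested probes. With the spike-in ratio added as a covariate the shares were 14.1% and 11.3%. Without air offspring replicate 1, 12 members were called lower, against 24.7% of all tested probes.

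The median offspring difference of the members was 0.55 on the log2 scale, from -0.77 to 2.20, against 0.05 over all tested probes and 0.10 over those at the same minimum level. It was above 0 at 128 of 142 members, and at 56.5% of the probes at that level. Every smoke offspring array lay above every air offspring array at 68 members, against 31% of all tested probes. The reverse held at 1 member, against 27.4% of all tested probes. The 85 uncalled members had a median difference of 0.35 and were above 0 at 72. In a fit of the 6 offspring arrays alone, whose spread owes nothing to the dam arrays, limma called 50 members higher and 1 lower, where 22.8% and 21.7% of all tested probes were called.

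Of the 13 members at 2-fold or more in dams, 5 were called higher in offspring and none lower, where 28.1% and 25.1% of all tested probes were called. The offspring difference exceeded the dam difference at 48 members. Among the members called higher, the median offspring difference was 1.06 and 33 were above 2-fold. By brightness in air dams, 18 of the 48 dimmest members, 14 of the 47 in the middle and 24 of the 47 brightest were called higher. Shares over all probes of like brightness, or above 2-fold among all calls, were not taken, so nothing is read from these counts.

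Both of the largest offspring increases among the calls were at probes under 2-fold in dams, as 129 of the 142 are. A_52_P158095 read 295%, 447% and 456% of the 75th percentile in smoke offspring and 70.6%, 156% and 56.0% in air offspring. The log2 difference was 2.20 (standard error 0.32, limma adjusted p = 0.000433). From the offspring arrays alone the standard error was 0.40, with a limma adjusted p of 0.00711. In the plain equal-variance test it was 0.49, with an adjusted p of 0.0403. In dams the probe read 102%, 147% and 117% in smoke and 74.2%, 77.2% and 87.5% in air. The smoke offspring arrays were the highest of all 12, and both dam groups lay far under them.

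A_52_P163541 showed the same order of groups. It read 487%, 562% and 619% in smoke offspring and 121%, 212% and 83.9% in air offspring. The log2 difference was 2.10 (standard error 0.27, limma adjusted p = 0.000243). From the offspring arrays alone the standard error was 0.33, with a limma adjusted p of 0.00462. In the plain equal-variance test it was 0.40, with an adjusted p of 0.0294. In smoke dams the probe averaged 198 ± 32.2% and in air dams 127 ± 15% (SD, n = 3 each).

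The steadier of the dam markers also rose in offspring. A_51_P115601 read 10.1%, 12.02% and 9.26% in smoke offspring and 6.73%, 6.99% and 5.34% in air offspring, giving a log2 difference of 0.72 (standard error 0.19, limma adjusted p = 0.00957). That difference was 0.62 when slide was a fixed block and 0.57 when the spike-in ratio entered as a covariate, neither called (limma adjusted p = 0.0862 and 0.131). On arrays left unscaled or scaled to the spike-ins it was 0.13 and 0.01, with limma adjusted p = 0.768 and 0.986.

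None of the probes above 4-fold in dams was called in offspring with all arrays (0 of 3). Of all tested probes, 28.1% were called higher and 25.1% lower. With so few probes, which shared their order of dam arrays, nothing is read from this count. A_51_P461067 read 7.07%, 7.53% and 7.09% in smoke offspring and 6.38%, 3.65% and 3.09% in air offspring, giving a log2 difference of 0.80 (standard error 0.43, limma adjusted p = 0.137). That difference was as large as the one at A_51_P115601, with a wider standard error. The offspring groups did not overlap. The fit of the offspring arrays alone gave an adjusted p of 0.0480 in limma, just under the cut-off. The plain equal-variance test, which also left out the dam arrays, gave an adjusted p of 0.126. A_52_P1054013 averaged 4.61 ± 0.734% in smoke offspring and 3.83 ± 1.73% in air offspring, and A_51_P122752 averaged 22.9 ± 2.44% and 17.1 ± 3.38% in the same order (SD, n = 3 each). Neither was called, with limma adjusted p = 0.569 and 0.363. Both offspring groups held these probes below the air dams on average.

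One member was called lower in smoke offspring. A_51_P344566 read 37.7%, 38.5% and 35.5% in smoke offspring and 53.2%, 57.0% and 56.0% in air offspring, giving a log2 difference of -0.57 (standard error 0.16, limma adjusted p = 0.0122). It read 133%, 82.1% and 81.6% in smoke dams and 56.6%, 54.2% and 58.0% in air dams, so the air groups were alike and the smoke groups lay on opposite sides of them. Whether the dam and offspring differences differ was not tested, since the dam difference chose the probe. With slide as a fixed block the log2 difference stayed at -0.58 with a wider standard error of 0.22, and the limma adjusted p was 0.0610. It was -0.41 when the spike-in ratio entered as a covariate, with a limma adjusted p of 0.170.

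The size of the members' median offspring difference depended much on 1 air array, and the count called higher less so. The median level over the 142 probes was 29.7%, 29.2% and 29.9% on smoke offspring replicates 1, 2 and 3, and 14.0%, 28.0% and 24.0% on air offspring replicates 1, 2 and 3. Smoke offspring lay close together and air offspring did not. Air offspring replicate 1 was the lowest of the 3 air offspring arrays at 116 members, against 39.7% of all tested probes. It was the lowest of the 6 offspring arrays at 113 members, against 23.7% of all tested probes. Per probe, the median SD on the log2 scale was 0.10 in smoke offspring and 0.53 in air offspring, against 0.12 and 0.20 over all tested probes.

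Without air offspring replicate 1, limma called 51 members higher (35.9%) and 12 lower, where 25% and 24.7% of all tested probes were called. The median difference was 0.29. Of the 56 members called higher with all arrays, 47 were also called without it, and 11 members were called lower only without it. Those 12 lower members had medians of 29.3%, 27.3% and 27.6% on smoke offspring replicates 1, 2 and 3, and 13.9%, 43.0% and 37.6% on air offspring replicates 1, 2 and 3. Without air offspring replicate 2, which lay toward the smoke offspring over all probes, 80 members were called higher and 1 lower, where 29% and 25% of all tested probes were called. Without that array and smoke dam replicate 3 together, a setting chosen after seeing the data, 76 were called higher and 1 lower, where 29.1% and 25.1% of all tested probes were called. In all 12 fits that left out 1 array each, 42 of the 56 were called higher every time. How many of all probes called higher stayed so was not counted, so neither the 42 nor the 47 is read as particular to the members.

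On air offspring replicates 1, 2 and 3 the spike-in ratio was 2.30, 3.23 and 1.60 and the score on the first principal component -37.7, -11.5 and -43.3, so replicate 2 was the highest on both, as it was over the members. The spike-in ratio was then added to the fit as a covariate, a setting chosen after seeing the data. Limma called 20 members higher (14.1%) and 0 lower, where 11.3% and 13.4% of all tested probes were called. In that fit 38 members had an unadjusted limma p under 0.05 in either direction. The part of the spike-in ratio in the offspring difference was not tested further.

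The arrays were scanned on 3 slides, and slide and group overlapped in part. In dams, slide 3 held smoke replicate 3 and air replicate 3, whose median difference over the members was 0.91 on the log2 scale. The remaining smoke dams were on slide 1 and the remaining air dams on slide 2, and they differed by a median of 0.65. In offspring, slide 1 held smoke replicate 1 and air replicate 1, which differed by a median of 1.07, with 135 of 142 members higher in smoke. The remaining offspring arrays, with smoke on slide 2 and air on slide 3, differed by a median of 0.31, with 105 of 142 higher in smoke. Over all tested probes the same pairs were higher in smoke at 50.4% and 53.4%.

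Slides could also be set against each other within a group. Smoke offspring on slide 1 and on slide 2 differed by a median of -0.01 over the members. Air offspring on slide 1 and on slide 3 differed by a median of -0.70, with 123 members lower on slide 1. Over all tested probes both medians were -0.02, and 45.8% of probes were higher on slide 1 in air offspring. Slide 1 held only replicate 1 of each offspring group, so slide and array cannot be told apart here. With slide as a fixed block, limma called 53 members higher and 0 lower in smoke offspring, where 22.7% and 20.4% of all tested probes were called.

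Offspring and dam levels were set side by side without a test, since dam values chose the members. In air, offspring minus dam had a median of 0.08 on the log2 scale over the members, and 106 of 142 lay within 0.5 of each other. In smoke the median was -0.07, with 75 members lower and 67 higher in offspring. Every smoke offspring array lay above every air dam array at 113 members, against 34.8% of all tested probes, but the choice of members kept air dams low. Every smoke offspring array lay below every smoke dam array at 38 members, against 26.9% of all tested probes, and above at 37, against 32.9%. Nothing is read from these counts, since dam values entered the choice.

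At 12 members the smoke offspring mean was under the smoke dam mean by more than 2-fold, and these included the 3 probes above 4-fold in dams. Over these 12 the median level was 8.81%, 9.07% and 7.15% on smoke offspring replicates 1, 2 and 3, and 54.8%, 29.1% and 53.2% on smoke dam replicates 1, 2 and 3. It was 10.2%, 11.2% and 9.90% on air dam replicates 1, 2 and 3. Smoke offspring minus air dams had a median of -0.43 on the log2 scale over these 12, from -1.97 to 0.37. At 2 of them, picked out after their values were seen, smoke offspring lay over 2-fold under air dams, with -1.97 at A_51_P311235 and -1.28 at A_51_P351953. A_51_P351953 was near the floor of 1.16%, at 1.72%, 1.62% and 2.09% in smoke offspring, and at the floor on every air offspring array. At 6 members, among them A_52_P158095 and A_52_P163541, smoke offspring exceeded smoke dams by more than 2-fold. The medians were 391%, 505% and 537% in smoke offspring against 132%, 186% and 160% in smoke dams. No share over all tested probes stands beside the 12 or the 6, and the choice favoured high smoke dam readings. Nothing is therefore read from these counts.

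The offspring count depended on the scaling. Without scaling 9 members were called higher and 8 lower in smoke offspring, where 0.625% and 35.5% of all tested probes were called. Under spike-in scaling 5 were higher and 8 lower, where 0.351% and 33% of all were called. Under median centring 68 were higher and 1 lower, where 34.7% and 20.1% of all were called. These settings moved the median difference of all tested probes to -0.49, -0.58 and 0.18, and that of the members to -0.045, -0.16 and 0.68. Relative to all tested probes, the members' median was higher by 0.50 under the 75th percentile, 0.50 under median centring, 0.45 when unscaled and 0.42 under spike-in scaling. Apart from the floor and the choice of tested probes, each scaling shifts the log2 difference of every probe equally. The likeness of these values was thus given beforehand, and nothing is read from it. The same excess was 0.25 without air offspring replicate 1 and 0.66 without air offspring replicate 2. It was 0.36 once the fit adjusted for spike-in signal. The plain equal-variance test called 26 higher (18.3%) and 1 lower, where 15.6% and 16.6% of all tested probes were called.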

How the data were processed

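The deposited values were linear intensity values, 1 column per array, for 41174 probes and 93 control probes. Per the labels Cy5 marked the lung RNA and Cy3 a universal mouse reference, while scan names carry a 1-colour code. Which channel was deposited, the background correction and the software are not given in the sources used here. Group differences are those of lung RNA only where the values come from its own channel.

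Each array was scaled to its 75th percentile, floored at 1.16% of it (the highest background of any array, the 95th percentile of 50 controls without target) and converted to log2. Testing took the 28200 probes that exceeded this floor on 3 arrays or more. Limma 3.58.1 in R 4.3.3 (lmFit, eBayes) fitted 1 mean per group over 12 arrays, with two-sided tests, after a test on simulated data. Python 3.11.15, numpy 2.4.6 and pandas 2.3.3 made the summaries. The number of arrays limits the precision.

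Named probes were both markers, the largest offspring calls in each direction (at most 2) and, added later, the probes above 4-fold in dams. Members, markers and tests were chosen with earlier results of these data known. Gene lists and cell type markers set down for named probes were not used, since no probe could be named. Titles gave group and replicate, and scan names the slide.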

Additional observations from a re-analysis of the deposited data

Results flagged for a closer look

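The E1A spike-ins lie outside the probes compared. Relative to the 75th percentile they gave more signal in smoke offspring than in air offspring, by a log2 difference of 0.71 (0.709). At 1 member, A_51_P344566, every smoke array moved up in dams and down in offspring, with an offspring log2 difference of -0.57 (-0.574), and the difference between the stages was not tested.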

How the results depend on the processing

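In offspring, leaving out 1 array at a time gave 46 to 80 members called higher, 1 to 12 called lower and a median log2 difference of 0.29 to 0.72. The same fits called 22.6% to 29.0% of all tested probes higher and 21.3% to 25.3% lower. Without scaling the counts were 9 and 8 and the median -0.045, and with spike-in scaling 5 and 8 and -0.16. The plain test called 26 higher (18.3%), where 15.6% of all tested probes were called higher. The spike-in covariate gave 20 higher (14.1%), where 11.3% of all tested probes were called higher, and 0 lower. Slide as a fixed block gave 0 lower. Array weights called 3 lower, where 27.2% of all tested probes were called lower. The cause was not tested. Among named probes, A_52_P1054013 changed sign under spike-in scaling (-0.36), under the spike-in covariate (-0.045) and when unscaled (-0.24), as did A_51_P122752 (-0.27, -0.042 and -0.15). A_51_P461067 was called in limma with the offspring arrays alone and without dam smoke replicate 2, but not in the plain test. The replicate block left 56 higher and 1 lower, where 26.4% and 23.6% of all tested probes were called, and a median of 0.55. Same-numbered offspring arrays deviated together at r = 0.00900, 0.217 and 0.00106 across probes, and 1 of 3 smoke arrays correlated best with its own number. With 3 arrays a group these values cannot settle whether same-numbered samples are linked. Smoke and air offspring replicate 1 also shared slide 1. The number of probes meeting the selection was 239 without scaling (137 of the 142 members), 27 with spike-in scaling (25 members), 13 at a log2 difference of 1 and 219 without the minimum level. Leaving out 1 dam array gave 156 to 272, with 107 to 138 of the members among them, both highest without dam smoke replicate 2. The median dam difference was 0.67 to 0.83 without 1 array each and 0.91 within slide 3.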

Other observations

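The same selection turned round, with every smoke dam array below every air dam array, all 3 air arrays above 5% of the 75th percentile and the same size of difference, was met by 48 probes, against the 142 that were higher. It was tried after seeing the data, and its probes were not followed further.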
